A study of Rattus norvegicus with 35 samples.

Results

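Propiconazole and myclobutanil, a pair of triazole fungicides, were compared at the same dose, 100 uM, in primary rat hepatocytes, liver cells taken from the animal and kept in culture. The arrays were chosen by their titles, 3 for propiconazole at 100 uM and 3 for myclobutanil at 100 uM, so 6 of the 35 arrays of the series carried this comparison. All the cultures were exposed for 72 h through the medium, and total RNA was hybridized as biotin-labelled cRNA to Affymetrix rat expression arrays. The other arrays described here were the same compounds at 30 uM and 10 uM (3 arrays per compound and dose) and the DMSO vehicle at 0.1% (3 arrays). Every array carried a code, Rs256, Rs293 or Rs304, and each of these groups held 1 array per code. The study described its replicates as biological, but the meaning of the code is not stated, nor are the strain, sex or number of rats. The p-values below therefore measure the spread between arrays, and that spread was estimated over all 35 arrays of the series.

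Both compounds carry a triazole ring whose nitrogen binds the heme iron of cytochrome P450 enzymes. They were designed against the fungal sterol demethylase CYP51. In propiconazole the chain between the triazole and a chlorinated phenyl ring passes through a carbon of a dioxolane ring that bears a propyl group, and in myclobutanil the corresponding carbon bears a nitrile and a butyl group. Propiconazole also has an additional chlorine on the phenyl ring. In rodent liver such triazoles are known to act on the nuclear receptors CAR and PXR, which raise drug-metabolising enzymes. Fatty acid oxidation in hepatocytes is driven by another nuclear receptor, PPARalpha, and defence against electrophiles by the transcription factor NRF2, which acts through antioxidant response elements.

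Values are given in normalized units on a log-like scale whose base the deposited table does not state, so differences are not folds. If the spiked control transcripts bioC and cre were present at the manufacturer's standard 5 and 100 pM, a doubling was worth 0.485 ± 0.0366 units on these arrays (SD, n = 6). A difference is always propiconazole minus myclobutanil with its SE from limma. A gene was called at a Benjamini-Hochberg adjusted p under 0.05 over the 10490 genes tested, in a fit that compared the compounds within the Rs code.

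At 100 uM the 2 compounds differed at 744 genes, 7.09% of those tested. Of these, 406 genes (3.87% of those tested) were higher with propiconazole and 338 (3.22%) were lower, and 398 and 335 of them had the same sign within all 3 codes. Most of the differences were small: the median over the higher genes was 0.19 units and over the lower genes -0.23 units, and 20 genes in each direction passed 0.5 units. The 3 arrays of each compound did not overlap at 1144 genes, called or not (10.9% of those tested), and at 209 of the 338 called lower. Adjusting the p-values of the 3 matched doses together, an alternative chosen after seeing the data, left 350 genes called (197 higher, 153 lower).

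The number of calls depended on the handling of the arrays. With no block for the Rs code the count was 78 (39 higher, 39 lower), and without the arrays of Rs304 it was 56. With only the 6 arrays compared it was 32. Leaving out all arrays of Rs293 gave 378, leaving out the myclobutanil array of Rs293 alone gave 412, and leaving out that of Rs304 alone gave 396. On the values as deposited, with no quantile normalization, 91 genes were called, and 89.0% of those were higher with propiconazole, in place of 54.6%. With each array centred and scaled 98 were called, 91.8% of them higher. All 91 genes called on the deposited values were among the 744. A set of 131 called genes, most of them named below, was followed across settings. Of these, 21 stayed called with no block, 18 on the deposited values, 82 without Rs256, 78 without Rs293 and 20 without Rs304. Nqo1, Sdcbp2 and Sfn were called in each of these 5 settings. Called in none of them were Slc27a5, Gdf15, Fgf21, Hmox1, Txnrd1, Kynu, Khk, Pfkfb3, Phyh, Pecr, Acot8, Hexa, Akr1d1, Mcm4, Ccne1, Dcn and Inhbe. Pparg, named below but outside the 131, was called in none of them either.

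Measures of the arrays and of other cell types stood as follows, and their part in the results was not tested. The SD of the deposited values was 0.677 to 0.715 on the propiconazole arrays and 0.681 to 0.707 on the myclobutanil arrays. The 3' minus 5' signal of Actb, a reading of RNA integrity, was 0.650, 0.725 and 0.570 with propiconazole (Rs256, Rs293 and Rs304), against 0.724, 0.834 and 0.610 with myclobutanil, lower with propiconazole in each code. The same reading of Gapdh was 0.263, 0.215 and 0.080 with propiconazole, against 0.240, 0.230 and 0.135 with myclobutanil. It was higher with propiconazole in Rs256 and lower in Rs293 and Rs304. The mean level of the cholangiocyte markers was lower in each code, at 0.388, 0.374 and 0.316 units with propiconazole, against 0.425, 0.430 and 0.328 with myclobutanil. Of these 6 markers 3 had a positive and 3 a negative difference, with a median of 0.0041. Onecut1, 1 of the 6, differed by -0.36. The mean level of 9 hepatocyte markers was 3.22 to 3.39 units with propiconazole and 3.19 to 3.39 with myclobutanil after quantile normalization, while their median difference on the deposited values was -0.22. Of 16 macrophage markers with a probe set 7 were bright enough to be tested. Their mean level was 0.654, 0.488 and 0.575 units with propiconazole, against 0.696, 0.363 and 0.415 with myclobutanil. It was lower with propiconazole in Rs256 and higher in Rs293 and Rs304. The mean level of 4 endothelial markers was higher in each code, at 0.399, 0.091 and 0.138 units, against 0.299, 0.067 and 0.104. That of 12 stellate cell markers was 0.335, 0.277 and 0.231 units with propiconazole, against 0.352, 0.294 and 0.195 with myclobutanil.

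**Figure D1:**
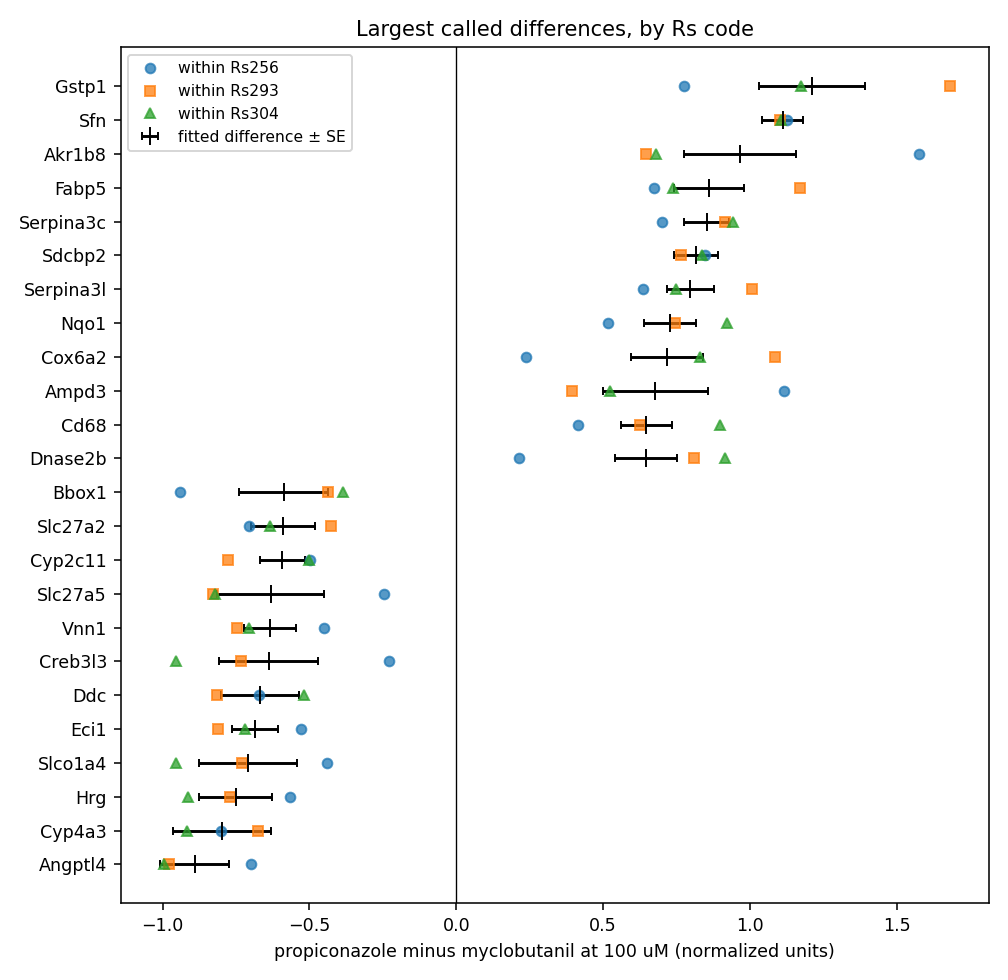
Difference between propiconazole and myclobutanil at 100 uM (normalized units, horizontal axis) for the 12 largest called differences in each direction among genes with the same sign in all 3 codes. Coloured points are the differences within each Rs code and black bars the fitted difference ± SE. Gstp1 (1.21) is at the top and Angptl4 (-0.89) at the bottom.

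The largest difference of all genes tested was in Gstp1, the pi-class glutathione transferase, which conjugates electrophiles to glutathione. Its level was 2.90, 3.21 and 3.52 units with propiconazole (Rs256, Rs293 and Rs304), against 2.13, 1.53 and 2.34 with myclobutanil and 1.68, 2.08 and 2.22 with DMSO. Every propiconazole array lay above every myclobutanil array, and the myclobutanil arrays lay on both sides of the DMSO arrays. The difference was 1.21 ± 0.18 units (adjusted p = 0.000228). Gstp1 mean minus DMSO was 1.22 units with propiconazole and 0.01 units with myclobutanil. The gene has near-identical relatives in the rat, and its probe set may report them too.

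Of 22 genes tested that are known as targets of NRF2, 9 (40.9%) were higher with propiconazole and 0 lower, against 3.87% and 3.22% of all genes. Over the 22 genes, 15 had a positive and 7 a negative difference. Their median difference was 0.21 units, and the median over all genes was 0.00. Beside Gstp1 the called members were Akr1b8, Nqo1, Akr7a3, Srxn1, Hmox1, Gclm, Txnrd1 and Abcc4. Among the members not called were Gclc, Gsr and Slc7a11, at 0.20, 0.26 and 0.13. The negative ones were Pgd, Tkt, Taldo1, Abcc1, Ephx1, Osgin1 and Cbr1, from -0.08 to -0.0054, none called. The list held 26 genes, of which 22 had a probe set of their own. The count of higher members was 2 with no block, 3 on the deposited values and, without Rs256, Rs293 or Rs304, 6, 5 or 1, and the median was 0.19 on the deposited values.

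Nqo1, a reductase that detoxifies quinones, stood at 2.58, 2.41 and 2.40 units with propiconazole, against 2.06, 1.67 and 1.48 with myclobutanil and 1.69, 1.75 and 1.62 with DMSO. The propiconazole arrays lay close together and above all the others. The difference of 0.73 ± 0.09 units for Nqo1 (adjusted p = 1.71e-05) was called under every setting that left out a code, without the block and on the deposited values. Akr1b8, an aldo-keto reductase that reduces reactive aldehydes, stood at 2.04, 0.64 and 0.69 units with propiconazole, against 0.46, -0.00 and 0.01 with myclobutanil and 0.34, 0.26 and 0.10 with DMSO. For Akr1b8 the Rs256 culture was far above the others under propiconazole, and the groups did not overlap (0.97 ± 0.19, adjusted p = 0.00265).

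The remaining NRF2 targets called had smaller differences. Akr7a3, which reduces the dialdehyde of aflatoxin, differed by 0.42 ± 0.09 units, and was 0.39 above DMSO with propiconazole and -0.04 from it with myclobutanil. Srxn1, sulfiredoxin, differed by 0.37 units, Gclm, the modifier subunit of glutathione synthesis, by 0.32, and Txnrd1, thioredoxin reductase, by 0.30. Hmox1, heme oxygenase, differed by 0.36 units, and both compounds stood above DMSO, by 1.08 with propiconazole and 0.72 with myclobutanil. Abcc4, an efflux transporter of organic anions, differed by 0.22 units. Gstk1, a mitochondrial and peroxisomal glutathione transferase, differed by 0.62 ± 0.12 units, at 2.28, 3.04 and 2.59 with propiconazole, against 2.02, 2.16 and 1.87 with myclobutanil and 1.54, 1.26 and 1.29 with DMSO. Together with Gsto1 (0.28 units), Gstk1 and Gstp1 made 3 of 20 glutathione transferases called higher, with 0 lower and a list median of 0.06. Those 3 were 15% of the list, against 3.87% of all genes higher. The count of higher transferases was 1 with no block, 1 on the deposited values and 0 without Rs304.

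The promoter of Gstp1 is shown because its gene had the largest difference and because its window holds a match to the core of the antioxidant response element. The window runs from 250 bases before the annotated start to 50 after it (RefSeq, GRCr8, chr1:210769656-210769955, minus strand), and the capitals mark the match to TGACNNNGC, which begins at position -61 from the start.
Gstp1: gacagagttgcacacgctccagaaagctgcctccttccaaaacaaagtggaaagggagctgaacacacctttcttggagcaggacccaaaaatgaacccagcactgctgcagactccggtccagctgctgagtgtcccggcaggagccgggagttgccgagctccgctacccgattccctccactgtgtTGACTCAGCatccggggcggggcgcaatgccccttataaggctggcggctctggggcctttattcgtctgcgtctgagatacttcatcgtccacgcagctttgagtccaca
Searched on both strands, TGACNNNGC was found in such windows of 1305 of 8783 tested genes (14.9%), in 58 of the 351 genes called higher that had a window (16.5%) and in 45 of the 285 called lower (15.8%). Among the NRF2 targets called higher, 2 of 8 with a window held it, Gclm and Gstp1. The motif was chosen with the values known, and a match is a description of letters, not a binding site.

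Fatty acid oxidation genes differed in the other direction. Of 27 PPARalpha targets tested, 13 (48.1%) were lower with propiconazole and 0 higher, with a median difference of -0.24 units. Over all genes tested 3.22% were lower and 3.87% higher. In mitochondrial beta-oxidation and ketogenesis 10 of 23 genes were lower and 0 higher (median -0.22), and among peroxisomal genes 9 of 28 were lower and 0 higher (median -0.16). These lists share members, among them Eci1, Decr1 and Pex11a, so their counts are not separate. With no block 3, 3 and 2 members of the 3 lists were lower, on the deposited values 1, 0 and 0, and without Rs304 5, 3 and 1, while the medians on the deposited values were -0.27, -0.22 and -0.15. Both compounds had means below DMSO at the called members described below, except Acot8, propiconazole further than myclobutanil.

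Angptl4, a secreted inhibitor of lipoprotein lipase and a classical PPARalpha target, stood at 0.29, 0.31 and 0.25 units with propiconazole, against 0.99, 1.29 and 1.24 with myclobutanil and 2.14, 2.21 and 2.07 with DMSO. The groups formed 3 separate steps, with myclobutanil between propiconazole and DMSO. The difference of -0.89 ± 0.12 units for Angptl4 (adjusted p = 5.07e-05) was the largest in the lower direction. Cyp4a3, a fatty acid omega-hydroxylase, showed the same steps, at 0.84, 0.72 and 0.75 units with propiconazole, against 1.64, 1.39 and 1.67 with myclobutanil and 2.73, 2.73 and 2.89 with DMSO. For Cyp4a3 the difference was -0.80 ± 0.17 units (adjusted p = 0.00378), and its probe set may also report close Cyp4a relatives.

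Eci1, a mitochondrial isomerase needed to oxidise unsaturated fatty acids, stood at 1.27, 1.23 and 1.49 units with propiconazole, against 1.80, 2.04 and 2.21 with myclobutanil and 2.65, 2.91 and 3.05 with DMSO. No propiconazole array of Eci1 reached a myclobutanil array (-0.69 ± 0.08, adjusted p = 5.97e-06). Creb3l3, a membrane-bound transcription factor of the fasted liver, differed by -0.64 ± 0.17 units, with overlap between the groups, at 1.17, 0.35 and 0.72 with propiconazole, against 1.40, 1.08 and 1.68 with myclobutanil and 1.77, 2.18 and 2.38 with DMSO. Vnn1, a pantetheinase, differed by -0.63 ± 0.09 units, and the lowest myclobutanil array of Vnn1 (Rs256) and the highest propiconazole array (Rs293) both stood at 0.50. Fgf21, a hormone of fasting made by the liver, differed by -0.36 ± 0.10 units, at 0.59, 0.73 and 0.62 with propiconazole, against 0.81, 0.95 and 1.25 with myclobutanil and 1.60, 1.98 and 1.48 with DMSO.

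Some enzymes of the mitochondrial spiral were lower, and 13 of the 23 genes of its list were not called. Cpt2, which re-forms acyl-CoA inside the mitochondrion, differed by -0.23 units. The acyl-CoA dehydrogenases Acadl and Acadvl differed by -0.32 and -0.22, the hydroxyacyl dehydrogenase Hadh by -0.41 and the thiolases Acaa2 and Acat1 by -0.28 and -0.29. Decr1 and Eci2, which deal with unsaturated chains, differed by -0.41 and -0.36, and Etfdh, which passes the electrons to the respiratory chain, by -0.32. At Hadh the groups did not overlap: 1.56, 1.94 and 1.77 units with propiconazole, against 2.15, 2.29 and 2.07 with myclobutanil and 2.68, 2.67 and 2.64 with DMSO. The hydratase Echs1 and the subunits Hadha and Hadhb of the trifunctional protein were not called, at -0.0088, -0.11 and -0.05. The dehydrogenases Acadm and Acads, at -0.21 and -0.11, and the electron carriers Etfa and Etfb, at -0.11 and -0.08, were not called either.

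In the peroxisome Hao2, a hydroxyacid oxidase, differed by -0.50 ± 0.08 units, at 0.68, 0.96 and 1.34 with propiconazole, against 0.88, 1.72 and 1.89 with myclobutanil and 1.60, 1.94 and 2.08 with DMSO. The groups of Hao2 overlapped, with Rs256 low under each compound, and within each code propiconazole was lower. Hsd17b4, the multifunctional enzyme of peroxisomal beta-oxidation, differed by -0.35 units and Pex11a, which elongates peroxisomes before they divide, by -0.31. Of the 2 probe sets of Pex11a, at -0.31 and -0.16, 1 was called. Abcd3, a transporter of the peroxisomal membrane, Pecr, Phyh, Hao1 and Acot8 were also lower, at -0.25, -0.30, -0.31, -0.31 and -0.16 units.

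Not every well-known PPARalpha target was called. Cpt1a, the gate of fatty acid entry into mitochondria, stood at 0.21, 0.23 and 0.26 units with propiconazole, against 0.28, 0.51 and 0.62 with myclobutanil and 0.72, 1.80 and 1.73 with DMSO, a difference of -0.24 with a 95% interval of -0.60 to 0.12 (adjusted p = 0.478). Cyp4a1 was well below DMSO with each compound (-1.91 with propiconazole and -1.48 with myclobutanil), and its difference was -0.43 with an interval of -0.84 to -0.01 (adjusted p = 0.229). Fabp1, the liver fatty acid binding protein, differed by -0.41 (interval -0.82 to -0.00, adjusted p = 0.245). Ppara itself, which encodes the receptor, differed by 0.09 (interval -0.05 to 0.23). The propiconazole and myclobutanil arrays of Cpt1a did not overlap, as was so at 10.9% of all genes tested. Neither size nor sign can be fixed for Cpt1a and Ppara from these intervals, and a failure to call does not show that the compounds acted alike.

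The promoter of Cyp4a3 is shown because its gene was the most changed enzyme of this group and its window holds the letters of the core of a nuclear receptor element. It covers the same 250 and 50 bases (RefSeq, GRCr8, chr5:134352187-134352486, minus strand), and the capitals mark AGGTCA, which begins at position -105 from the start.
Cyp4a3: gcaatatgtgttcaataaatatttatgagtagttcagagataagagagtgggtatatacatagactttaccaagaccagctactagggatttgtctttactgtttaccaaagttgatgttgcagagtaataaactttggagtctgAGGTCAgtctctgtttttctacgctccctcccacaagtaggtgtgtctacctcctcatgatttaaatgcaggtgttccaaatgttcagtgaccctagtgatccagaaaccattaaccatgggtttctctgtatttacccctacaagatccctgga
Searched on both strands, AGGTCA was found in the windows of 1077 of 8783 tested genes (12.3%), in 49 of 285 genes called lower (17.2%) and in 53 of 351 called higher (15.1%). Among the PPARalpha targets called lower, 4 of 10 with a window held it, Acadvl, Creb3l3, Cyp4a3 and Eci1. This motif too was chosen with the values known.

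**Figure D2:**
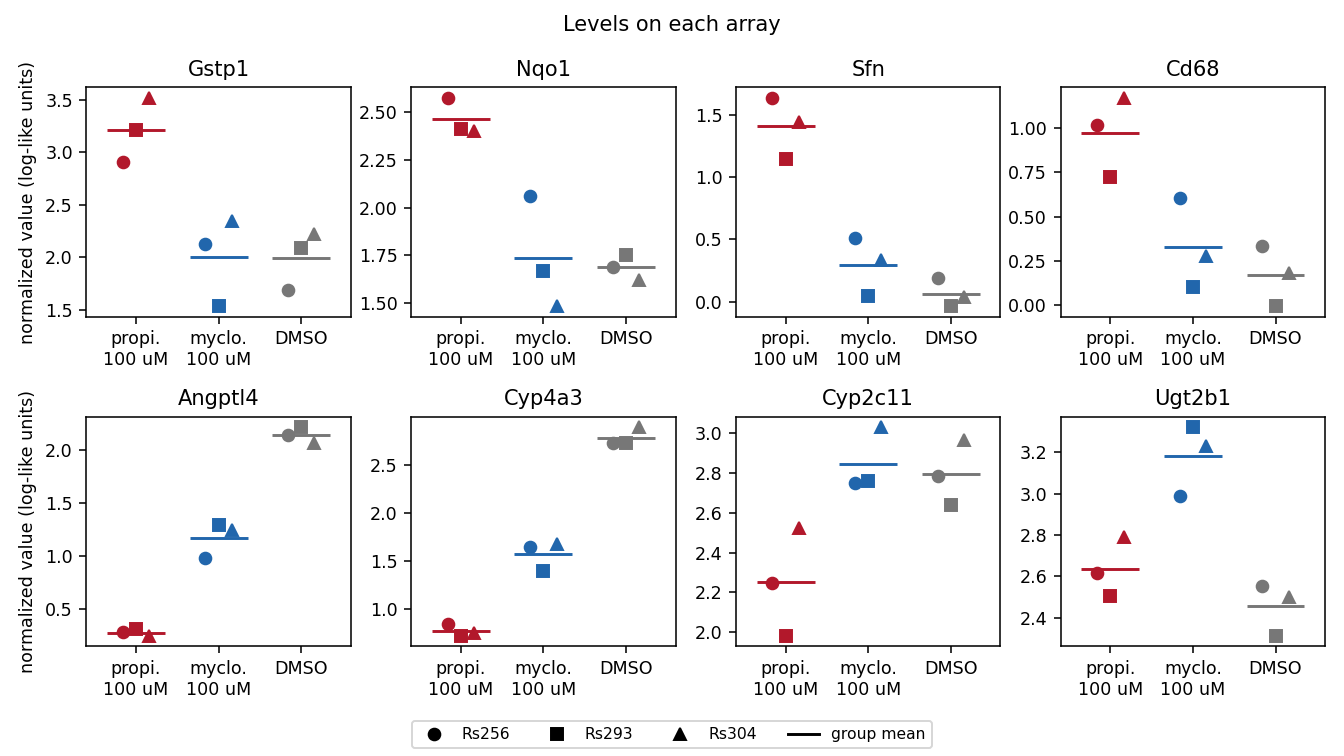
Level on each array (normalized log-like units, vertical axis) of 8 genes with propiconazole at 100 uM, with myclobutanil at 100 uM and with DMSO, 3 arrays each, with the symbol giving the Rs code and the bar the group mean. Angptl4 and Cyp4a3 fall in 3 steps, while the myclobutanil arrays of Gstp1, Nqo1 and Cyp2c11 lie around the DMSO arrays. Ugt2b1 is highest with myclobutanil.

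**Figure D3:**
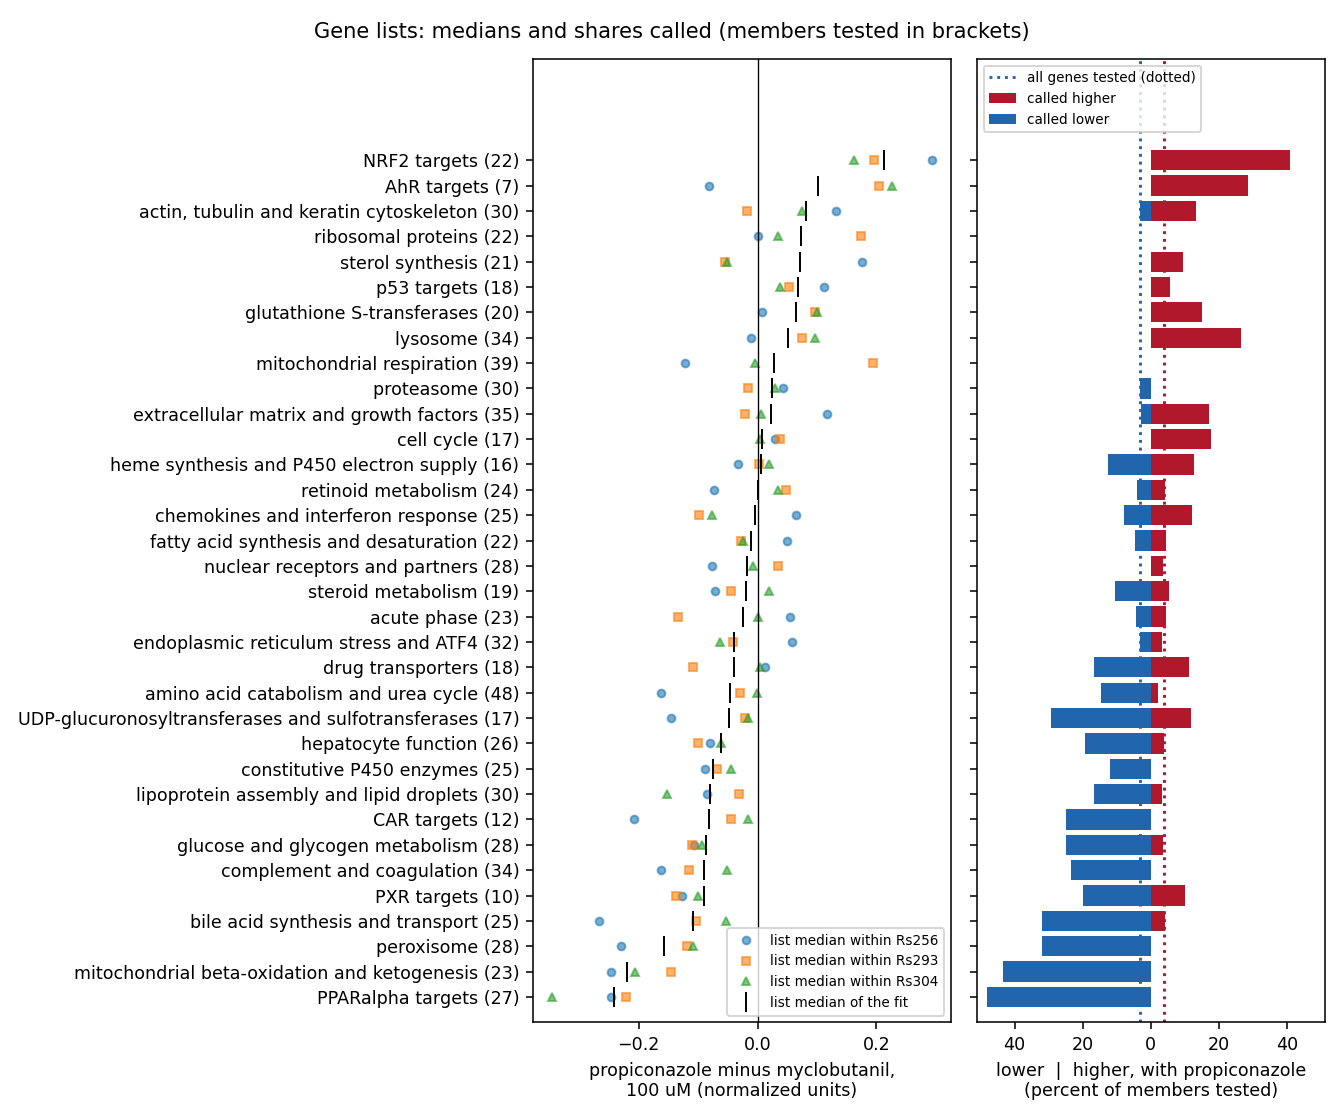
Gene lists ordered by their median difference between propiconazole and myclobutanil at 100 uM (left, normalized units), with the list medians within each Rs code as coloured points and the fitted median as a black bar. On the right, the percent of tested members called lower (left of 0) and higher (right of 0), with dotted lines at 3.22% and 3.87% for all genes. The PPARalpha list is lowest and the NRF2 list highest. The ribosomal, sterol synthesis, mitochondrial respiration, proteasome, retinoid and heme medians, all within 0.08 of 0, change sign under another array scaling.

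Lipid handling outside oxidation showed fewer differences. Among 30 genes of lipoprotein assembly and lipid droplets 5 (16.7%) were lower and 1 (3.33%) higher, against 3.22% and 3.87% of all genes (median -0.08). The lower genes were Cidec and Plin2, coats of the lipid droplet, at -0.28 and -0.24 units, Lipc, hepatic lipase, at -0.23, Mttp, which loads lipid onto apolipoprotein B, at -0.19 and Plin5 at -0.18. Of the 2 probe sets of Plin2, at -0.24 and -0.07, 1 was called. With no block, on the deposited values and without Rs304 none of the 30 genes was called. Abhd5, the activator of the lipase that opens lipid droplets, was higher, at 1.20, 1.16 and 1.09 units with propiconazole, against 0.92, 0.99 and 0.88 with myclobutanil and 0.85, 0.99 and 0.94 with DMSO (0.22 ± 0.05, adjusted p = 0.0123). Of 22 genes of fatty acid synthesis and desaturation, Fads2, a desaturase of polyunsaturated fatty acids, was higher, at 0.27, and Acly, which makes cytosolic acetyl-CoA, lower, at -0.24. That is 4.55% in each direction, near the shares of all genes. None of the 22 was called with no block, on the deposited values or without Rs304. Scd2 was raised strongly over DMSO by each compound (2.01 with propiconazole and 1.75 with myclobutanil), and its difference of 0.26 was not called (interval -0.12 to 0.65), although 1 of its 4 probe sets was called higher. For Scd, listed on the array as the liver stearoyl-CoA desaturase, the difference was -0.21 with an interval of -0.36 to -0.06 (adjusted p = 0.0906).

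The sterol pathway, where the fungal target of these compounds lies, separated them little. Cyp51, the rat counterpart of that target, stood at 2.99, 2.92 and 2.64 units with propiconazole, against 2.61, 2.96 and 2.70 with myclobutanil and 2.18, 2.43 and 2.34 with DMSO. The compounds overlapped, both above DMSO, and the difference for Cyp51 was 0.09 with a 95% interval of -0.10 to 0.29 (adjusted p = 0.623), changing sign on the deposited values. Over 21 genes of sterol synthesis the median was 0.07, which fell to 0.0035 as deposited and -0.0041 scaled. Of these 21 genes 2 (9.52%) were higher, against 3.87% of all genes, and 0 lower. Those were Acat2, which starts the pathway by joining acetyl-CoA units, at 0.22 ± 0.06 units, and Stard4, a carrier of cholesterol between membranes, at 0.20 ± 0.04. Acat2 stood at 1.90, 1.82 and 1.75 units with propiconazole, against 1.46, 1.73 and 1.62 with myclobutanil and 1.02, 0.96 and 1.01 with DMSO. Insig1, the sterol sensor partner, was not called, at -0.09 (interval -0.23 to 0.04).

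Bile acid genes, which make, conjugate and carry bile acids, were lower with propiconazole at 8 of 25 members and higher at 1, Abcc4 (median -0.11). That is 32% lower and 4% higher, against 3.22% and 3.87% of all genes. With no block 1 was lower, on the deposited values 0 and without Rs304 2. Slc27a5, the ligase that activates bile acids for conjugation, stood at -0.04, 0.18 and 0.04 units with propiconazole, against 0.20, 1.0 and 0.86 with myclobutanil and 0.80, 1.54 and 1.57 with DMSO (-0.63 ± 0.18, adjusted p = 0.0356). Baat, which then joins them to glycine or taurine, differed by -0.49 ± 0.13 units. Slc27a2, an acyl-CoA synthetase of very long chains and bile acid precursors, differed by -0.59 ± 0.11, at 1.05, 1.32 and 1.46 with propiconazole, against 1.75, 1.74 and 2.10 with myclobutanil and 2.54, 2.58 and 2.87 with DMSO. The arrays of the compounds did not overlap at any of these 3 genes. Within each code both lay below DMSO, although the myclobutanil and DMSO arrays of Slc27a5 overlapped. Abcb4, the phospholipid pump of the canaliculus, differed by -0.32 units and Akr1d1, which reduces the steroid nucleus, by -0.24. Cyp7a1, which sets the rate of bile acid synthesis, differed by -0.14 with an interval of -0.66 to 0.39, so that neither direction nor size was resolved.

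Among targets of the drug-sensing receptors, 1 of 10 PXR targets was higher and 2 were lower (20%), and of 12 CAR targets 0 were higher and 3 lower (25%), against 3.22% of all genes lower. The list medians were -0.09 and -0.08 units, and -0.22 and -0.18 on the deposited values. The lower counts were 0 and 1 with no block, and 0 in both lists on the deposited values and without Rs304. The best-known inducible P450 of the PXR list, Cyp3a23-3a1, stood at 3.67, 3.50 and 3.56 units with propiconazole, against 3.69, 3.72 and 3.68 with myclobutanil and 3.32, 2.52 and 2.52 with DMSO. Both compounds were above DMSO on every array of Cyp3a23-3a1, and the difference was -0.12 with an interval of -0.43 to 0.20. Cyp2c6v1 was 1.31 above DMSO with propiconazole and 1.42 with myclobutanil, a difference of -0.10 (interval -0.37 to 0.16). Abcc2, a canalicular export pump, was 0.95 above DMSO with each compound, a difference of 0.00 (interval -0.30 to 0.31) that became -0.13 on the deposited values and -0.16 with each array centred and scaled. Ces1d, a carboxylesterase, was -1.73 from DMSO with propiconazole and -1.56 with myclobutanil, a difference of -0.17 (interval -0.59 to 0.25).

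Slco1a4, an uptake transporter of organic anions that PXR is known to regulate, stood at 0.10, 0.47 and 0.40 units with propiconazole, against 0.54, 1.20 and 1.35 with myclobutanil and 0.73, 0.80 and 0.93 with DMSO. Every propiconazole array lay below DMSO, while 2 of the 3 myclobutanil arrays lay above it (-0.71 ± 0.17, adjusted p = 0.0103). Alas1, the first enzyme of heme synthesis, stood at 1.46, 2.28 and 2.19 units with propiconazole, against 2.57, 2.41 and 2.52 with myclobutanil and 1.98, 2.10 and 2.33 with DMSO. All myclobutanil arrays of Alas1 lay above the DMSO arrays, and the propiconazole arrays overlapped DMSO, with Rs256 lowest (-0.52 ± 0.15, adjusted p = 0.0343). Abcb1a, an efflux pump, was higher by 0.24 ± 0.07 and stood above DMSO with both compounds.

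Ugt2b1, a glucuronosyltransferase of the CAR list, stood at 2.62, 2.51 and 2.79 units with propiconazole, against 2.99, 3.32 and 3.23 with myclobutanil and 2.55, 2.31 and 2.50 with DMSO. Its level was 0.18 above DMSO with propiconazole and 0.73 with myclobutanil, and the compounds did not overlap at Ugt2b1 (-0.54 ± 0.10, adjusted p = 0.00119). Sult1a1, a phenol sulfotransferase, was below DMSO with both, at 2.60, 2.67 and 2.87 units with propiconazole, against 3.20, 3.35 and 3.22 with myclobutanil and 3.61, 3.50 and 3.61 with DMSO (-0.55 ± 0.07, adjusted p = 3.02e-05). Ugt2b10 differed in the other direction, higher by 0.49 ± 0.11, and Ugdh, which makes the glucuronic acid donor, was higher by 0.36 ± 0.07. In all, 5 of 17 glucuronosyltransferase, sulfotransferase and cofactor genes were lower and 2 higher (median -0.05). Those were 29.4% and 11.8%, against 3.22% and 3.87% of all genes. The count of lower members was 2 with no block, 0 on the deposited values and 1 without Rs304. Ugt2b genes are near-identical copies, so a probe set may read more than its named gene.

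Among 25 constitutive P450 enzymes 3 (12%) were lower, against 3.22% of all genes, and 0 higher (median -0.08). The count of lower members was 1 with no block, 0 on the deposited values and 1 without Rs304. Cyp2c11, the main P450 of male rat liver, stood at 2.25, 1.98 and 2.52 units with propiconazole, against 2.75, 2.76 and 3.03 with myclobutanil and 2.78, 2.64 and 2.96 with DMSO. Myclobutanil arrays of Cyp2c11 lay at the level of DMSO and all propiconazole arrays below (-0.59 ± 0.08, adjusted p = 3.77e-05). Cyp2j4, an epoxygenase, and Cyp2f4 differed by -0.36 and -0.35 units, and the CAR-list members Ces2c and Cyp2a2 by -0.30 and -0.22. Of 7 AhR targets 2 (28.6%) were higher, against 3.87% of all genes. These were Nqo1, which the NRF2 list also holds, and Tiparp, an ADP-ribosyltransferase. Tiparp stood at 1.11, 1.22 and 1.18 units with propiconazole, against 0.92, 0.91 and 0.65 with myclobutanil and 0.82, 0.81 and 0.69 with DMSO. Cyp1a1, the defining target of that receptor, had a difference of 0.00 with an interval of -0.17 to 0.18, which became -0.15 on the deposited values and -0.18 with each array centred and scaled. Of 16 genes of heme synthesis and P450 electron supply 2 were higher and 2 lower (12.5% each, against 3.87% and 3.22% of all genes). These included Cyb5b, whose 2 probe sets were called in opposite directions (0.24 and -0.24), so that no direction can be given for Cyb5b, and Cyb5r3, lower at -0.15.

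Genes of several metabolic functions of the hepatocyte were lower. Over all genes tested 3.22% were lower and 3.87% higher. In glucose and glycogen metabolism 7 of 28 genes (25%) were lower and 1, Pfkfb3, higher (median -0.09). Fbp1, a controlling step of gluconeogenesis, stood at 1.86, 1.90 and 1.69 units with propiconazole, against 2.50, 2.26 and 2.14 with myclobutanil and 2.65, 2.54 and 2.57 with DMSO (-0.48 ± 0.07, adjusted p = 0.000237). Slc37a4, which carries glucose 6-phosphate into the endoplasmic reticulum, differed by -0.49 units, Gys2, liver glycogen synthase, by -0.47 and Gckr, the regulator of glucokinase, by -0.42. Khk, which starts fructose breakdown, and Pklr, liver pyruvate kinase, differed by -0.37 and -0.27. In amino acid catabolism and the urea cycle 7 of 48 genes were lower and 1 higher (median -0.05), with Kynu of tryptophan breakdown at -0.42, Dmgdh of choline breakdown at -0.40, Cbs of homocysteine removal at -0.33, Gpt2 at -0.31 and arginase, Arg1, at -0.29. Of the 2 probe sets of Gpt2, at -0.31 and -0.02, 1 was called. The transcription factor Onecut1 differed by -0.36, and of its 2 probe sets, at -0.36 and -0.19, 1 was called. Of 26 genes on the list of hepatocyte functions, which overlaps with these, 5 were lower and 1 higher. Without Rs304 1 gene of each of these 3 lists was lower, and on the deposited values 0. On the deposited values the list medians were larger in size, at -0.20 for glucose, -0.08 for amino acids and -0.21 for hepatocyte functions, the last in place of -0.06.

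Some secreted plasma proteins were also lower. In complement and coagulation 8 of 34 genes (23.5%) were lower, against 3.22% of all genes, and 0 higher (median -0.09). The lower count was 0 with no block, on the deposited values and without Rs304. The median was -0.15 on the deposited values. C4bpa, which restrains complement, differed by -0.50 ± 0.12 units, Mbl2, the mannose-binding lectin, by -0.49 ± 0.14, and the coagulation factors F9 and F12 by -0.46 ± 0.09 and -0.34 ± 0.07. Of the 2 probe sets of Mbl2, at -0.49 and -0.29, 1 was called. F9 stood at 2.11, 1.71 and 1.69 units with propiconazole, against 2.46, 2.24 and 2.19 with myclobutanil and 2.86, 2.61 and 2.61 with DMSO. Hrg, the histidine-rich glycoprotein of plasma, had the third largest lower difference, at 1.73, 1.50 and 0.93 units with propiconazole, against 2.30, 2.27 and 1.84 with myclobutanil and 3.18, 2.81 and 2.19 with DMSO (-0.75 ± 0.13, adjusted p = 0.000521). Levels of Hrg differed between codes as much as between compounds, and the order of the groups was the same within each code. Of 23 acute phase genes 1 was lower and 1 higher (4.35% each), against 3.22% and 3.87% of all genes. These were Crp at -0.35 and Serpina3c at 0.85. The markers of hepatocytes, among them Alb, Ttr, Apob and Serpina1, held no called gene of 9. Their median was 0.00, and -0.22 on the deposited values. The 0.00 is the value of Alb, which the quantile normalization fixes, with 4 markers above it and 4 below.

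Serpina3c and Serpina3l, serine protease inhibitors, and Sdcbp2, an adaptor protein related to syntenin, were among the largest higher differences. Serpina3c stood at 1.55, 1.06 and 1.20 units with propiconazole, against 0.85, 0.15 and 0.26 with myclobutanil and 0.47, -0.18 and -0.03 with DMSO (0.85 ± 0.08, adjusted p = 2.01e-07). Serpina3l stood at 2.03, 1.56 and 1.59 units with propiconazole, against 1.40, 0.56 and 0.85 with myclobutanil and 1.20, 0.37 and 0.61 with DMSO (0.80 ± 0.08). In both genes Rs256 was highest under each treatment, and propiconazole was highest within each code. These are close copies in the rat and their probe sets may share transcripts. Sdcbp2 stood at 1.65, 1.32 and 1.46 units with propiconazole, against 0.80, 0.55 and 0.62 with myclobutanil and 0.63, 0.27 and 0.32 with DMSO (0.82 ± 0.07, adjusted p = 2.01e-07).

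Sfn, 14-3-3 sigma, a p53 target that holds cells before mitosis, had the smallest p of the comparison. It stood at 1.64, 1.15 and 1.45 units with propiconazole, against 0.51, 0.05 and 0.34 with myclobutanil and 0.19, -0.04 and 0.04 with DMSO. The difference for Sfn was nearly equal in the 3 codes (1.11 ± 0.07, adjusted p = 1.82e-10). It was the sole called member of 18 p53 targets (5.56%, against 3.87% of all genes higher), whose median was 0.07. Of 17 cell cycle genes 3 (17.6%) were higher, with a list median of 0.01. These were Pcna, the DNA polymerase clamp, at 0.24, Mcm4, a subunit of the replicative helicase, at 0.17, and Ccne1, cyclin E, at 0.11. With no block, on the deposited values and without Rs304 none of the 17 was called.

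Of 32 stress genes of the endoplasmic reticulum 1 was higher and 1 lower (3.12% each, median -0.04), against 3.87% and 3.22% of all genes. The higher one was Ddit3, the transcription factor CHOP, at 1.23, 1.40 and 1.46 units with propiconazole, against 0.96, 0.77 and 1.07 with myclobutanil and 0.78, 0.57 and 0.45 with DMSO (0.43 ± 0.08, adjusted p = 0.00224). The lower one was Hsp90b1, an endoplasmic reticulum chaperone, at -0.26. Gdf15, a stress-induced hormone, stood at 1.52, 0.80 and 0.76 units with propiconazole, against 0.39, 0.33 and 0.64 with myclobutanil and 0.14, 0.22 and 0.74 with DMSO (0.58 ± 0.16, adjusted p = 0.026). For Gdf15 the Rs256 array of propiconazole stood well above the others.

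Lysosomal genes were higher at 9 of 34 members (26.5%), against 3.87% of all genes, and lower at 0 (median 0.05). The count of higher members was 0 with no block, 2 on the deposited values and 1 without Rs304. Cd68, a lysosomal glycoprotein best known from macrophages, stood at 1.02, 0.73 and 1.17 units with propiconazole, against 0.61, 0.10 and 0.27 with myclobutanil and 0.34, -0.01 and 0.18 with DMSO (0.65 ± 0.09, adjusted p = 5.7e-05). Gpnmb, a glycoprotein of lysosome-related organelles, differed by 0.46 ± 0.09 units, Cd63, a tetraspanin of late endosomes, by 0.31, Neu1, a sialidase, by 0.29 and Grn, progranulin, by 0.28. The protease genes Ctsb and Ctsz differed by 0.21 and 0.15, Npc2, which moves cholesterol out of the lysosome, by 0.23 and Hexa by 0.16. Dnase2b, a relative of the lysosomal nuclease, differed by 0.65 ± 0.11 units.

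Macrophage markers were set beside these lysosomal genes. Of the 7 tested, Cd68 and Cd14, the lipopolysaccharide co-receptor (0.33 ± 0.09), were higher and none was lower, and the list median was -0.04. The higher share was 28.6%, against 3.87% of all genes. Csf1r, Clec4f, C1qb and Aif1, which define liver macrophages, had levels between -0.09 and 0.48 units on the 6 arrays and differences of -0.03 to -0.04, none called, and Lyz2 differed by -0.26 (interval -0.46 to -0.07, adjusted p = 0.101). A further 9 macrophage markers, among them Cd163, Adgre1 and Ptprc, were too dim to be tested. In a culture, more cells of a type and more RNA per cell cannot be told apart.

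Genes of the cytoskeleton and matrix gave mixed results. Over all genes tested 3.87% were called higher and 3.22% lower. The tubulins Tubb6, Tubb5 and Tuba4a were higher by 0.34, 0.33 and 0.23 units and Cnn3 by 0.17, making 4 of 30 cytoskeletal genes, and the intermediate filament gene Vim was lower. The count of higher members was 0 with no block, 0 on the deposited values and 1 without Rs304. Vim stood at 2.52, 2.16 and 2.17 units with propiconazole, against 2.82, 2.69 and 2.51 with myclobutanil and 2.89, 2.45 and 2.33 with DMSO (-0.39 ± 0.05, adjusted p = 4.86e-05). Of 35 genes of the extracellular matrix and growth factors 6 were higher and 1, Inhbe, lower, and 0 were higher with no block, on the deposited values or without Rs304. They included Lgals3, galectin-3, at 0.50 ± 0.10, Timp3 and Timp1, inhibitors of metalloproteinases, at 0.44 and 0.30, and Anxa5 at 0.38. Of 12 stellate cell markers tested 3 were higher (Timp1, Reln and Dcn, by 0.30, 0.22 and 0.13) and 1, Vim, lower, and the list median was -0.02. Of 4 endothelial markers tested none was called, and of 6 cholangiocyte markers Onecut1, also a hepatocyte gene, was lower.

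Among 25 genes of chemokine and interferon response 3 (12%) were higher and 2 (8%) lower, against 3.87% and 3.22% of all genes. None was called with no block, on the deposited values or without Rs304. Il1r2, the decoy receptor of interleukin-1, stood at 0.96, 1.91 and 1.91 units with propiconazole, against 0.66, 1.04 and 1.26 with myclobutanil and 0.63, 1.05 and 1.06 with DMSO (0.60 ± 0.17, adjusted p = 0.0269). The groups of Il1r2 overlapped, with Rs256 lowest under every treatment. The immunoproteasome subunits Psmb8 and Psmb9 were higher by 0.25 and 0.23, and Cxcl16, a chemokine, and Ifi27 lower, at -0.31 and -0.21. Of 39 genes of mitochondrial respiration and of 22 ribosomal protein genes none was called in either direction. Of 28 nuclear receptors and their partners 1 (3.57%), Pparg, was higher and 0 lower. Pparg was not called with no block, with a random block, on the deposited values or without Rs256, Rs293 or Rs304. Of 30 proteasome genes 0 were higher and 1 (3.33%) lower. Both shares are near those of all genes.

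The remaining large differences fell in no single list. Fabp5, an intracellular fatty acid carrier, stood at 3.53, 3.56 and 3.23 units with propiconazole, against 2.86, 2.38 and 2.50 with myclobutanil and 2.12, 1.89 and 1.89 with DMSO (0.86 ± 0.12, adjusted p = 8.01e-05). The 3 groups of Fabp5 did not overlap, with propiconazole highest, myclobutanil between and DMSO lowest. Cox6a2, the muscle form of a cytochrome oxidase subunit, differed by 0.72 ± 0.12 units and Ampd3, an AMP deaminase, by 0.68 ± 0.18. In the lower direction Bbox1, which completes carnitine synthesis, differed by -0.59 ± 0.15 and Ddc, which makes dopamine and serotonin from their precursors, by -0.67 ± 0.13. Ddc stood at 0.38, 0.56 and 0.61 units with propiconazole, against 1.05, 1.37 and 1.13 with myclobutanil and 0.92, 1.0 and 0.95 with DMSO, so the compounds lay on opposite sides of DMSO. A second probe set of Ddc differed by -0.10 and was not called.

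Some called genes had the compounds on opposite sides of the DMSO mean, and those named next were chosen after their values were seen. Anpep, a membrane aminopeptidase, was 0.40 above DMSO with propiconazole and -0.21 from it with myclobutanil, a difference of 0.60 ± 0.09 (adjusted p = 0.000307). Sgk1, a glucocorticoid-induced kinase, was 0.22 above and -0.23 from DMSO in the same order, and Car8, a carbonic anhydrase relative, 0.18 and -0.22. Over all called genes, 87 of the 406 higher and 61 of the 338 lower had means on opposite sides of DMSO, and so did 2468 of all 10490 genes. The DMSO arrays are shared by both compounds, so these positions are descriptions and were not tested.

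At lower matched doses no gene was called. At 30 uM 0 genes passed (0% of those tested), with 727 at an unadjusted limma p under 0.05 and a smallest adjusted p of 0.264, and at 10 uM 0 passed (0%), with 278 unadjusted. The 406 genes higher at 100 uM had a median difference of 0.03 units at 30 uM and 0.00 at 10 uM, and 279 of them (68.7%) were positive at 30 uM, against 50.4% of all genes. The 338 lower genes had medians of -0.01 at each of these doses, and 189 (55.9%) were negative at 30 uM, against 49.6% of all genes. The propiconazole array of Rs293 at 30 uM had an SD of 0.941, above all the other arrays of the series.

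The change of the difference between 30 and 100 uM was tested directly and was called for 93 genes (0.887%), 45 of them with a larger value at 100 uM and 48 with a smaller one. Without the propiconazole array of Rs293 at 30 uM, an alternative added after seeing the data, the count was 151, and without the block it was 0. Gstp1 differed by -0.00 units at 30 uM and 1.21 at 100 uM (adjusted p of the change = 0.0218), and Sfn by 0.08 and 1.11 (adjusted p = 1.58e-06). Nqo1 differed by 0.06 units at 30 uM and 0.73 at 100 uM (adjusted p = 0.0111), Serpina3c by 0.07 and 0.85, and Ddit3 by -0.13 and 0.43. On the lower side Hrg differed by 0.04 units at 30 uM and -0.75 at 100 uM (adjusted p = 0.0274), Sult1a1 by 0.02 and -0.55, Cyp2c11 by -0.05 and -0.59, Eci1 by -0.22 and -0.69 and Ugt2b1 by 0.05 and -0.54. Angptl4 and Cyp4a3 were already -0.26 and -0.44 apart at 30 uM, and the change to 100 uM was not called for either (-0.63 with adjusted p = 0.0631 for Angptl4, -0.36 with adjusted p = 0.545 for Cyp4a3).

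**Figure D4:**
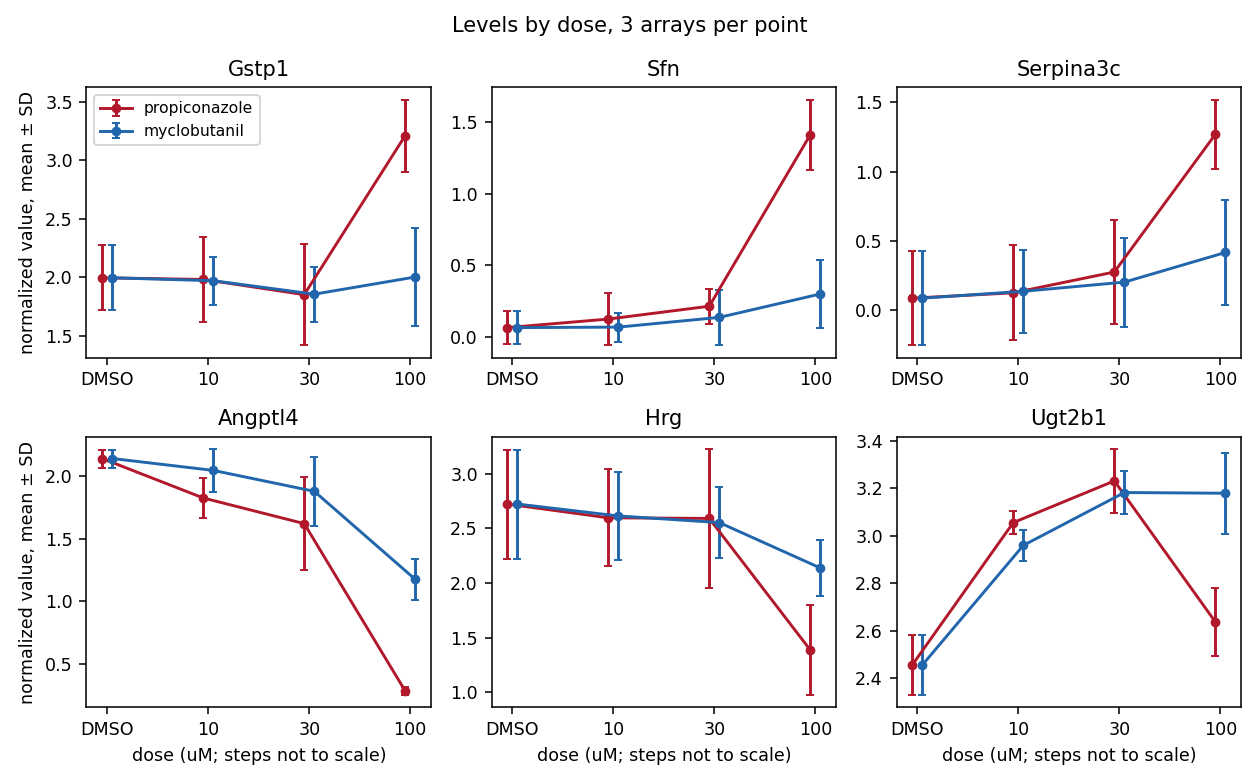
Mean ± SD over 3 arrays of 6 genes (normalized units, vertical axis) with DMSO and at 10, 30 and 100 uM (horizontal axis, steps not to scale) of propiconazole and myclobutanil. The DMSO point is the same 3 arrays for both lines. Gstp1, Sfn, Serpina3c and Hrg part between 30 and 100 uM, and Ugt2b1 reaches 2.64 with propiconazole and 3.18 with myclobutanil at 100 uM.

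**Figure D5:**
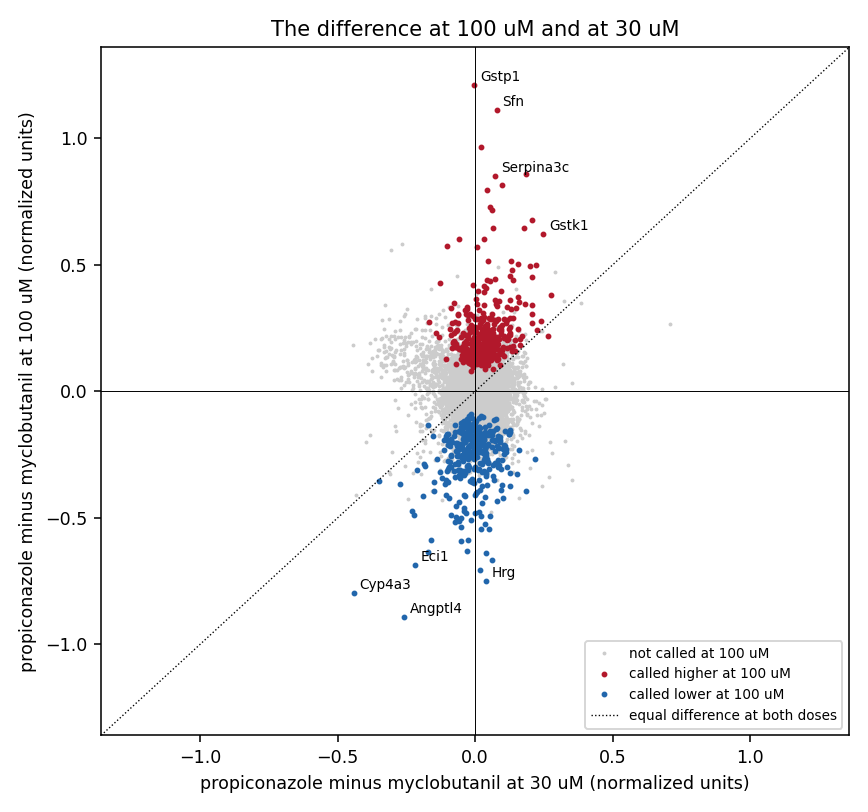
Difference between propiconazole and myclobutanil at 100 uM (vertical axis) against the difference at 30 uM (horizontal axis), both in normalized units, for each of the 10490 genes tested, with genes called higher in red and lower in blue. Most called genes lie closer to 0 on the horizontal axis than on the vertical one. Gstp1 is at 1.21 and -0.00, Cyp4a3 at -0.80 and -0.44.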

How the data were processed

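The deposited table gave, per the labels, Affymetrix rat array values of primary hepatocytes as a score whose scale behaves like a logarithm. The authors' summarisation, background correction, normalization and log base are not given in the sources used here. The 35 arrays were quantile normalized here, which fixes the brightest probe set, albumin, at 1 value. Of 31099 probe sets 20826 named 1 gene in the platform annotation. Each of 14217 genes was represented by its brightest probe set, and 10490 above the array median on at least 2 arrays were tested. With each probe set fitted alone, Akr1d1, Bbox1, Abcb1a and Tubb5 had 1 of 2 probe sets called, both of the same sign. limma 3.58.1 in R 4.3.3 fitted all 12 groups with the Rs code as a block. Two-sided p-values were Benjamini-Hochberg adjusted, and the code was tested on simulated data. The number of arrays limits the precision.

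The Rs codes pair the arrays: deviations from the group means correlated at 0.579, 0.630 and 0.532 within the codes at 100 uM, and at -0.136 at most between codes. Deviations of 3 arrays from their own mean cancel out, so positive values within codes force negative ones between codes on average. The comparison, the gene lists and the motifs were chosen with earlier results of these data known. By rule the genes followed across settings were the 12 largest differences in each direction with the same sign in all codes. They also held up to 4 members of each list with at least 3 calls, and a fixed set (104 genes with a value in all). A further 43 list members and genes were chosen after their values were seen. Most of these genes are named above. Alternatives left out the block, the normalization, the filter, single codes or arrays. Triadimefon, phenobarbital and PCN arrays entered the fit as groups of their own and are not described.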

Additional observations from a re-analysis of the deposited data

How the results depend on the processing

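The 744 genes called at 100 uM became 78 with no replicate block, 91 on the values as deposited, 98 with each array centred and scaled, 32 with only the 6 arrays compared and 350 when the 3 doses were adjusted together. Leaving out a code or a single array gave 56 to 678. The pairing by code was part of the comparison as chosen, and the correlations describe it. The count stayed within 1.5 times under a random block (573), no filter, a stricter filter, gene means, trended variances and single probe sets. The 93 genes whose difference changed between 30 and 100 uM became 0 with no replicate block, 57 with a random block, 6 as deposited and 151 without the propiconazole array of Rs293 at 30 uM. At 30 and 10 uM 0 genes were called under all alternatives run with limma, with 220 at 30 uM and 39 at 10 uM at an unadjusted p under 0.05 without the block, and 1599 and 88 as deposited. Fewer arrays and degrees of freedom enter some of these fits, and otherwise the cause was not tested. Of the 131 called genes followed, only Cyb5b reversed, to -0.0022 with its probe sets averaged. Among genes not called, Abcc2 turned to -0.13 as deposited and -0.16 scaled (-0.084 to 0.16 over the left-out codes and arrays), Cyp1a1 to -0.15 and -0.18 (-0.083 to 0.11) and Cyp51 to -0.0062 and -0.031 (-0.050 to 0.19), while Cyp7a1 ranged from -0.37 to 0.14 and Ppara from -0.0049 to 0.18. List medians moved by more than their spread over codes for 10 lists as deposited and 11 scaled, among them hepatocyte function (-0.21 as deposited, in place of -0.06) and ribosomal proteins (-0.08, in place of 0.07).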
